A study of Homo sapiens with 8 samples.

Results

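The 31 genes described here encode lysosomal enzymes, lysosomal membrane proteins and proteins that serve them, taken by symbol from a fixed list of names out of 36779 genes in the deposited count tables. All 31 were listed in the tables and all 31 were among the 17869 genes tested. The list holds membrane glycoproteins, cholesterol carriers, cathepsins, glycosidases, enzymes of lipid and peptide breakdown, and a few proteins that are not lysosomal enzymes or membrane proteins themselves, such as the endoplasmic reticulum protein CLN8 and the transcription factor TFEB. The question was whether the rise of CD68 was shared by other lysosomal genes.

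The study measured total RNA from PC3 and DU145, human prostate cancer cell lines, by RNA sequencing after removal of ribosomal RNA. Each line was transfected with a plasmid for circ0003553 (titled RCAN3), with a plasmid for circ0004592 (titled STK3), or with the negative control plasmid of either arm. Circular RNAs, or circRNAs, are covalently closed transcripts. The 8 libraries are 1 PC3 library with circ0003553, 1 PC3 library with circ0004592, 2 PC3 controls, 1 DU145 library with circ0003553, 1 DU145 library with circ0004592 and 2 DU145 controls. Control 1 of a line belongs to the RCAN3 arm and control 2 to the STK3 arm, and all 8 libraries carry a plasmid. The labels give no dose, harvest time or statement that libraries came from separate cultures, so p-values measure the spread between these libraries, which may be technical. The test takes the single library of a circRNA in a line to scatter as the controls do.

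Total counts ran between 33444940 and 49926342 per library. The tables give values per gene, and none of them was taken for either circRNA itself. RCAN3, which titles the circ0003553 arm, stood at 44.6 CPM in PC3 and 36.9 CPM in DU145 with circ0003553, against 29.5 to 32.95 CPM and 18.2 to 20.8 CPM in the controls of each line. STK3, which titles the circ0004592 arm, stood at 19.5 CPM in PC3 and 33.8 CPM in DU145 with circ0004592, against 7.65 to 9.13 CPM and 26.1 to 28.7 CPM in those controls. Epithelial keratins KRT8, KRT18 and KRT19 stood above 100 CPM in all 8 libraries, with KRT19 at 442 and 428 CPM in PC3 with circRNA, against 751 and 732 CPM in the PC3 controls. Of the other epithelial markers, EPCAM stood at 29.9 to 36.6 CPM in PC3 and 124 to 154 CPM in DU145, while CDH1 (E-cadherin) stood at 0.736 to 1.17 CPM in PC3 and 40.9 to 64.6 CPM in DU145. CPM here is the count scaled to a library's effective size. Since these are bulk cultures, more cells with a transcript and more transcript per cell cannot be told apart.

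Lysosomes are acidic organelles that break down proteins, glycans and lipids with hydrolases working at low pH. A proton pump acidifies them, heavily glycosylated membrane proteins line them, and most soluble enzymes reach them through mannose 6-phosphate receptors. The transcription factor TFEB and its relatives bind a short palindrome in the promoters of many lysosomal genes, known as the CLEAR element, and epithelial and tumour cells use this system for nutrient recycling.

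Promoters of members are shown for CD68 and SCARB2, which rose in PC3 with both circRNAs. GLA also rose there with both and has an entry, but is not shown. MCOLN1 and GAA are shown because they carry the CLEAR palindrome, and MCOLN1 also rose in PC3 with circ0004592. Each sequence is the 250 bases before the RefSeq start on the gene's own strand in GRCh38.p14, and capitals mark CACGTG, with the GT before it and the AC after it where both are present (the CLEAR palindrome). CD68 lies at chr17:7579388-7579637 (plus strand), SCARB2 at chr4:76213825-76214074 (minus strand), MCOLN1 at chr19:7522374-7522623 (plus strand) and GAA at chr17:80101331-80101580 (plus strand). The gene models of CD68, SCARB2 and GAA in the deposited tables start inside these windows, so part of each window is transcribed in those models.
CD68: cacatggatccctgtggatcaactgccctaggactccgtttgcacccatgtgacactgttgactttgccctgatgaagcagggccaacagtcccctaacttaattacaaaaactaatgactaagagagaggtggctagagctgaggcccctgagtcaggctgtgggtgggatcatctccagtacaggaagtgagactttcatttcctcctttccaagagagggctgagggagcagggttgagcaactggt
SCARB2: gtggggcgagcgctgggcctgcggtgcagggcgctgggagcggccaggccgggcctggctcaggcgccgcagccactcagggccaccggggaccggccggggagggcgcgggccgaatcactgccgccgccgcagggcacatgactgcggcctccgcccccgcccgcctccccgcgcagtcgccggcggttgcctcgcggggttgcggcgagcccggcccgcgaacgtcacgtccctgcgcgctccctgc
MCOLN1: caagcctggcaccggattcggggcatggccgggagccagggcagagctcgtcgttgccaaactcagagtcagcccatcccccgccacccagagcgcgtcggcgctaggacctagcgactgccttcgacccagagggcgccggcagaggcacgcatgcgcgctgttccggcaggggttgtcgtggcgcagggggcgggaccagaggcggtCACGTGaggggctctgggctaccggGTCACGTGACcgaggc
GAA: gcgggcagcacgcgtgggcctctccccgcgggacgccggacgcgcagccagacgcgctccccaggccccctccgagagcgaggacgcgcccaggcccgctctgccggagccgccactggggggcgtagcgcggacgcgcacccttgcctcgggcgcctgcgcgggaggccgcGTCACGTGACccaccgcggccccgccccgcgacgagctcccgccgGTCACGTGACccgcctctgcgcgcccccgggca

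The table of promoters held 23 of the 31 members, and LAMP2, LAMP3, CTSB, CTSS, HEXA, PSAP, ASAH1 and CLN8 had no entry in it. CACGTG, which reads the same on both strands, stood in 8 of the 23 (CD63, LAMP1, CTSA, CTSD, GAA, NEU1, CLN3 and MCOLN1), against 6.34% of 35116 windows of the same length. A member was counted if any of its windows matched, and CD63 had 8 windows, TFEB 3, and CLN3 and NPC2 2 each. Counts of members and shares of windows are thus unlike measures, here and for the motifs below. CACGTG with GT directly before it and AC directly after it, the CLEAR palindrome, stood in GAA and MCOLN1 and in 0.308% of windows. GAAANNGAAA, the repeat bound by interferon-regulated factors, searched on both strands, stood in 0 of the 23 members and in 3.02% of windows. A match is a stretch of letters and not a measured site.

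In PC3, CD68 rose together with LAMP3, SCARB2, CTSS and GLA, while CLN8 and CTSC fell and most other lysosomal genes were not called. In DU145, CD68 rose with CTSA, CTSB, CTSL and PSAP, by less than 1 on the log2 scale in every case. Over the whole list, 8 of 31 members were called with circ0003553 in PC3 (5 rose and 3 fell), where 28.2% of all tested genes were called, 15.6% higher and 12.6% lower. With circ0004592 in PC3, 8 were called (6 rose and 2 fell), where 24.8% of all tested genes were called, 13.2% higher and 11.7% lower. Both shares of members, 25.8%, were near these backgrounds. The median log2 change of the members was -0.01 and 0.03 in PC3, against -0.01 and -0.01 over all tested genes. The summed level of all members was 4110 and 4226 CPM in PC3 with circRNA, against 3414 and 3348 CPM in the PC3 controls. Without CD68, LAMP3 and SCARB2, the other 28 summed to 2849 and 2946 CPM with circRNA, against 2958 and 2915 CPM in the PC3 controls. These 3 were left out after their values were seen.

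In DU145, 13 of 31 members were called with circ0003553 (12 rose and MCOLN1 fell), where 10.5% of all tested genes were called, 4.24% higher and 6.3% lower. With circ0004592, 8 members rose and none fell, where 9.89% of all tested genes were called, 5.24% higher and 4.65% lower. The median log2 change was 0.13 and 0.10 over the members and 0.00 over all tested genes in both comparisons. The 12 rises with circ0003553 ran between 0.19 and 0.50 on the log2 scale and the 8 with circ0004592 between 0.21 and 0.68. The 28 members other than CD68, LAMP3 and SCARB2 summed to 2613 and 2664 CPM with circRNA in DU145, against 2196 and 2246 CPM in the DU145 controls. Abundant members weigh most in such a sum, so it does not show how many members rose. Among them, CTSL stood at 775 and 740 CPM with circRNA, against 556 and 598 CPM in those controls. CTSB stood at 293 and 315 CPM, against 238 and 243 CPM. The first count rested on the controls. It was 4 without DU145 control 1 (CTSA, CTSB, CTSL and TPP1), 7 without DU145 control 2 (these 4 with CD68, LAMP2 and PSAP) and 7 by DESeq2 (these 4 with CD68, LAMP3 and PSAP). The calls of CTSC, GAA, MCOLN1, NPC2 and PPT1 were thus lost in all 3 settings. With circ0004592, PSAP was lost without DU145 control 1, CTSA and NEU1 without DU145 control 2, and NEU1 by DESeq2. As a further alternative, limma on RPKM called 0 members and 0 genes in either DU145 comparison. At an unadjusted p under 0.05, limma had 15 members and 3087 genes with circ0003553 and 8 members and 3480 genes with circ0004592.

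CD68, a heavily glycosylated protein of lysosomal and endosomal membranes best known as a macrophage marker, was higher with either circRNA in both lines. It stood at 602 CPM with circ0003553 and 625 CPM with circ0004592 in PC3, against 294 and 270 CPM in the PC3 controls. The DU145 values were 125 CPM with circ0003553 and 168 CPM with circ0004592, against 99.96 and 109 CPM in the DU145 controls. All 4 circRNA libraries lay above both controls of their line, and all PC3 libraries lay above all DU145 libraries. The log2 change was 1.09 ± 0.06 (SE) for circ0003553 in PC3 (edgeR, adjusted p = 3.14e-11) and 1.15 ± 0.06 for circ0004592 in PC3 (edgeR, adjusted p = 1.46e-11). In DU145 it was 0.26 ± 0.06 for circ0003553 (edgeR, adjusted p = 0.0131) and 0.68 ± 0.06 for circ0004592 (edgeR, adjusted p = 3.40e-06). Against the control of the own arm alone, with no test, the CD68 value was 1.04 and 1.21 in PC3 and 0.33 and 0.62 in DU145. The DU145 change with circ0003553 was no longer called without DU145 control 1, at 0.20 (edgeR, adjusted p = 0.148). No DU145 gene was called for either circRNA by limma on the deposited RPKM.

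Reads at CD68 can belong to more than 1 listed gene. RP11-186B7.4 runs along the same strand of chromosome 17 through EIF4A1, a translation initiation factor, and CD68, and shares 1789 of the 2189 exonic bases of CD68. Its count was 99.4% to 99.8% of the sum of the EIF4A1 and CD68 counts in every library, so a read over a shared exon was counted for both genes. AC113189.5, on the opposite strand, shares 150 bases. CD68 had 19634 counts with circ0003553 and 20558 with circ0004592 in PC3, against 10523 and 9686 in the PC3 controls, while EIF4A1 had 11186 and 10715 counts, against 9346 and 9315. EIF4A1 changed by 0.40 and 0.32 on the log2 scale in PC3 (edgeR, adjusted p = 6.58e-06 and 8.89e-05), less than CD68 in the same libraries. The part of the spanning gene in the CD68 counts was not tested.

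**Figure D1:**
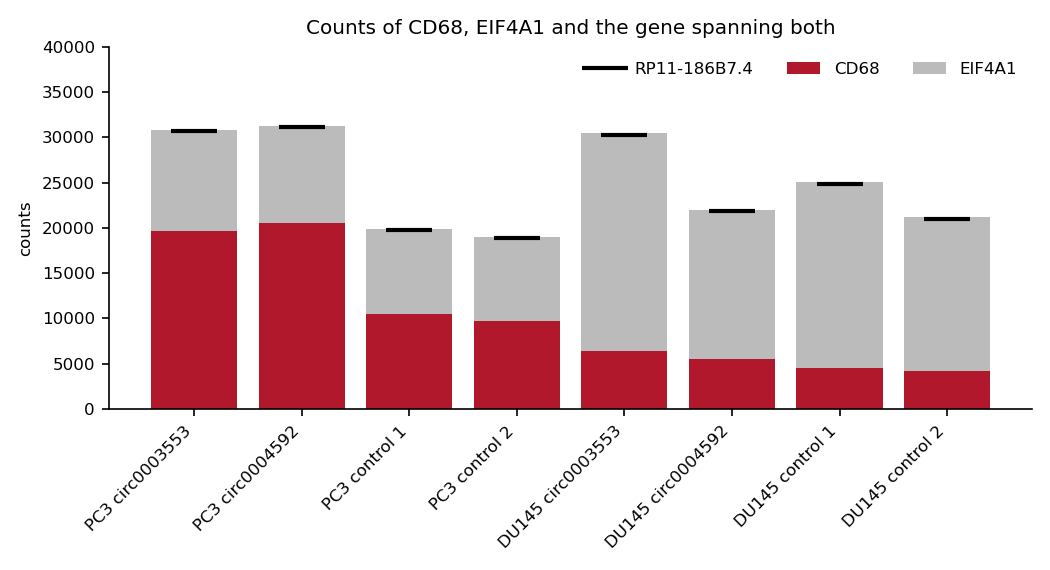
Counts (y axis) of CD68 (red) stacked under EIF4A1 (grey) in each of the 8 libraries, with the count of RP11-186B7.4 as a black line. The black line sits at 99.4% to 99.8% of the stacked height in all 8, and the red share is largest in the PC3 libraries with a circRNA.

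CD68 is used as a macrophage marker, so the other markers of that type were read as levels. Of 11 monocyte and macrophage genes, 10 were listed, and each stood under 1 CPM in all 8 libraries. Their summed level was 0.890 and 1.16 CPM in PC3 with circRNA, against 1.26 and 1.09 CPM in the PC3 controls. In DU145 it was 1.38 and 1.004 CPM with circRNA, against 0.767 and 0.628 CPM in the controls. The leukocyte gene PTPRC was at 0 to 0.0608 CPM, and MSR1 and LYZ had 0 counts in 7 of 8 libraries each.

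**Figure D2:**
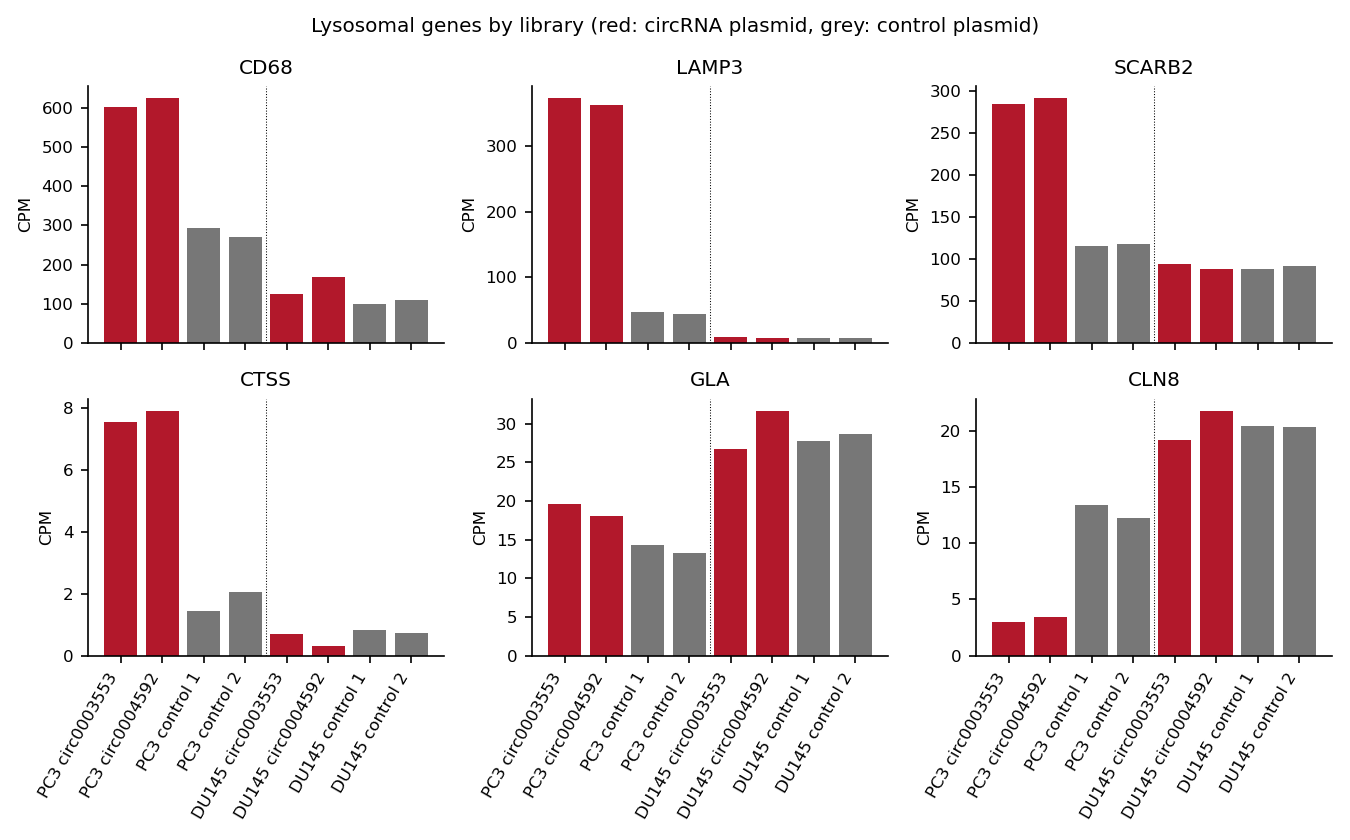
CPM (y axis, from 0, a scale of its own in each panel) of CD68, LAMP3, SCARB2, CTSS, GLA and CLN8 in the 8 libraries (1 bar each), with circRNA libraries in red and controls in grey. In PC3 the red bars stand above the grey ones for the first 5 genes and below them for CLN8, and in DU145 the red CD68 bars stand at 125 and 168 CPM, with the grey ones at 99.96 and 109 CPM.

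Among the other membrane proteins, LAMP3 and SCARB2 rose with CD68 in PC3 with both circRNAs, and the channel MCOLN1 rose there with circ0004592. LAMP3, the dendritic cell lysosomal membrane protein also known to be induced by interferon, stood at 373 CPM with circ0003553 and 363 CPM with circ0004592 in PC3, against 47.5 and 44.5 CPM in the PC3 controls. DU145 libraries had 8.79 and 6.93 CPM with circRNA, against 6.60 and 6.85 CPM in the controls. The PC3 groups lay far apart, whereas the DU145 libraries stayed within a narrow range. LAMP3 changed by 3.02 ± 0.06 (8.11-fold) with circ0003553 (edgeR, adjusted p = 1.24e-18) and by 2.98 ± 0.06 (7.90-fold) with circ0004592 in PC3 (edgeR, adjusted p = 1.62e-18). Its DU145 change was 0.39 ± 0.10 with circ0003553 (edgeR, adjusted p = 0.0171), which was lost without DU145 control 1 (edgeR, adjusted p = 0.114) or control 2 (edgeR, adjusted p = 0.0565), and 0.05 ± 0.12 with circ0004592, not called.

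SCARB2, or LIMP-2, carries glucocerebrosidase from the endoplasmic reticulum to the lysosome. In PC3 it stood at 284 CPM with circ0003553 and 292 CPM with circ0004592, against 115 and 118 CPM in the controls. Levels in DU145 were 94.4 and 87.6 CPM with circRNA, against 88.0 and 91.3 CPM in the controls. The PC3 groups did not overlap and the DU145 groups did. The change was 1.28 ± 0.06 with circ0003553 (edgeR, adjusted p = 6.74e-13) and 1.32 ± 0.06 with circ0004592 in PC3 (edgeR, adjusted p = 4.29e-13), and 0.08 ± 0.06 and -0.03 ± 0.06 in DU145, not called.

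Near SCARB2 on chromosome 4, the interferon-induced chemokine genes CXCL10 and CXCL11 were also higher in PC3 with circRNA. CXCL11 stood at 52.7 and 43.7 CPM with circRNA, against 0.0559 CPM and 0 in the controls (edgeR, adjusted p = 8.17e-17 and 1.85e-16). CXCL10 stood at 3.13 and 2.58 CPM with circRNA, against 0 counts in both PC3 controls. The adjacent NUP54, at 20.7 and 19.3 CPM against 18.3 and 18.0 CPM in PC3, was not called. SDAD1, beyond the chemokine genes, stood at 94.8 and 100.1 CPM with circRNA, against 77.3 and 80.4 CPM in the PC3 controls. It was called higher with both circRNAs, by 0.26 and 0.34. STBD1, on the other side, had 25.7 and 27.7 CPM against 32.4 and 32.6 CPM, a change of -0.34 with circ0003553 (edgeR, adjusted p = 0.0140) and of -0.23 with circ0004592, not called.

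LAMP1, LAMP2 and CD63 were not called in PC3. LAMP1, a main glycoprotein of the lysosomal membrane, stood at 39.5 and 42.0 CPM with circRNA, against 42.2 and 40.3 CPM in the PC3 controls, and was not called in any circRNA comparison within a line. LAMP2, which also serves as receptor of chaperone-mediated autophagy, stood at 52.5 and 50.7 CPM, against 52.6 and 51.4 CPM, and was not called in PC3. CD63, a tetraspanin of late endosomes and exosomes, stood at 762 and 762 CPM, against 825 and 809 CPM, and was not called in PC3 either. In DU145, LAMP2 rose by 0.37 ± 0.09 with circ0003553 (edgeR, adjusted p = 0.0136) and CD63 by 0.35 ± 0.05 with circ0004592 (edgeR, adjusted p = 2.50e-04).

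NPC1 and NPC2 hand cholesterol out of the lysosome. NPC1 was not called in any of the 4 comparisons within a line, with 177 and 182 CPM in PC3 with circRNA, against 181 and 172 CPM in the PC3 controls. NPC2 stood at 54.1 CPM with circ0003553 and 42.9 CPM with circ0004592 in DU145, against 43.6 and 43.7 CPM in the DU145 controls. The circ0003553 library stood above both controls and the circ0004592 library just below them, and the circ0003553 change of 0.31 ± 0.08 was called (edgeR, adjusted p = 0.0198).

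The cathepsins differed between lines in what they did. CTSS, a cysteine protease that trims the invariant chain of MHC class II, stood at 7.55 and 7.91 CPM in PC3 with circRNA, against 1.45 and 2.07 CPM in the PC3 controls. In DU145 it stood at 0.682 and 0.304 CPM with circRNA, against 0.833 and 0.732 CPM in the controls. It rose by 2.10 ± 0.25 with circ0003553 (edgeR, adjusted p = 2.75e-06) and by 2.17 ± 0.25 with circ0004592 in PC3 (edgeR, adjusted p = 1.90e-06). It was not called in DU145, where a library held 10 to 38 counts of it.

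CTSC, the dipeptidyl peptidase that activates granule serine proteases, fell in PC3. It stood at 32.1 and 32.5 CPM with circRNA, against 42.8 and 41.5 CPM in the PC3 controls. The change was -0.39 ± 0.09 with circ0003553 (edgeR, adjusted p = 0.00207) and -0.37 ± 0.09 with circ0004592 (edgeR, adjusted p = 0.00342), and it was 0.32 ± 0.09 with circ0003553 in DU145 (edgeR, adjusted p = 0.0260). DESeq2 and limma did not call the change with circ0004592 in PC3, and the DU145 call was lost by DESeq2 and limma and without either DU145 control.

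CTSL and CTSB, abundant cysteine proteases, rose in DU145 and not in PC3. CTSL stood at 775 and 740 CPM in DU145 with circRNA, against 556 and 598 CPM in the DU145 controls. In PC3 it stood at 184 and 182 CPM, against 168 and 190 CPM. The DU145 groups did not overlap, and the change there was 0.43 ± 0.06 with circ0003553 (edgeR, adjusted p = 3.22e-04) and 0.36 ± 0.06 with circ0004592 (edgeR, adjusted p = 0.00153). CTSB stood at 293 and 315 CPM in DU145 with circRNA, against 238 and 243 CPM in the DU145 controls. It changed by 0.29 ± 0.05 and 0.39 ± 0.05 (edgeR, adjusted p = 0.00205 and 1.80e-04).

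CTSA, a carboxypeptidase that protects NEU1 and GLB1 in their complex, followed the same DU145 order. It stood at 40.3 and 37.9 CPM with circRNA, against 30.6 and 29.5 CPM in the DU145 controls, with changes of 0.42 ± 0.07 and 0.33 ± 0.07 (edgeR, adjusted p = 7.43e-04 and 0.00734). CTSZ, a carboxypeptidase of the papain family, rose with circ0004592 alone in DU145, by 0.28 ± 0.06 (edgeR, adjusted p = 0.00673). CTSD, the main aspartic protease, and CTSH, an aminopeptidase, were not called in any of the 4 comparisons within a line. CTSD shares 52.7% of its exonic bases with other listed genes. CTSA shares 28.5% of its own with listed genes on the opposite strand, and their part in the CTSA counts was not tested.

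Most glycosidases were not called in PC3, where HEXA had 0 counts. GLA, the alpha-galactosidase deficient in Fabry disease, was the exception, at 19.6 and 18.0 CPM in PC3 with circRNA, against 14.3 and 13.2 CPM in the PC3 controls. The DU145 values were 26.7 and 31.6 CPM with circRNA, against 27.7 and 28.6 CPM in the controls, with overlapping groups. It rose by 0.51 ± 0.10 with circ0003553 (edgeR, adjusted p = 9.74e-04) and by 0.39 ± 0.10 with circ0004592 in PC3 (edgeR, adjusted p = 0.0102). The circ0004592 value was not called by DESeq2 (adjusted p = 0.164) or without PC3 control 2 (edgeR, adjusted p = 0.0625), and limma called neither value.

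GLB1, a beta-galactosidase, and GUSB, a beta-glucuronidase, were called in none of the 4 comparisons within a line. GAA, the acid alpha-glucosidase of glycogen breakdown, rose by 0.38 ± 0.11 with circ0003553 in DU145 (edgeR, adjusted p = 0.0274), a call lost by DESeq2 and limma and without either DU145 control. NEU1, a sialidase, rose by 0.34 ± 0.10 with circ0004592 in DU145 (edgeR, adjusted p = 0.0447), a call lost by DESeq2 and limma and without DU145 control 2. Neither was called in PC3.

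Enzymes of lipid and peptide breakdown changed little in PC3. ASAH1, acid ceramidase, stood at 35.8 CPM with circ0003553 and 40.1 CPM with circ0004592, against 43.7 and 41.3 CPM in the PC3 controls, and its change of -0.25 ± 0.09 with circ0003553 was called (edgeR, adjusted p = 0.0423). That call was lost by DESeq2, by limma, with both circRNAs as 1 group and without PC3 control 1. PSAP, the precursor of the saposins that help enzymes act on sphingolipids, rose in DU145 by 0.19 ± 0.05 and 0.21 ± 0.05 (edgeR, adjusted p = 0.0166 and 0.0103). TPP1, a tripeptidyl peptidase, stood at 24.2 CPM with circ0003553 and 17.9 CPM with circ0004592 in DU145, against 17.4 and 16.9 CPM in the DU145 controls. It rose by 0.50 ± 0.10 with circ0003553 (edgeR, adjusted p = 0.00336), and PPT1, a palmitoyl thioesterase, by 0.28 ± 0.07 (edgeR, adjusted p = 0.0144). SMPD1, acid sphingomyelinase, was not called for either circRNA in either line.

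CLN8, which escorts newly made lysosomal enzymes out of the endoplasmic reticulum, fell further than any other member in PC3. It stood at 2.98 and 3.44 CPM with circRNA, against 13.4 and 12.3 CPM in the PC3 controls. DU145 libraries had 19.2 and 21.8 CPM with circRNA, against 20.4 and 20.3 CPM in the controls. The PC3 groups were well apart, while the DU145 controls lay between the circRNA libraries. The change in PC3 was -2.11 ± 0.16 with circ0003553 (edgeR, adjusted p = 2.71e-09) and -1.90 ± 0.15 with circ0004592 (edgeR, adjusted p = 8.83e-09). ARHGEF10, a neighbour of CLN8 on chromosome 8, stood at 17.2 and 15.7 CPM in PC3 with circRNA, against 18.6 and 19.3 CPM in the controls, and was called lower with circ0004592 (-0.27, edgeR, adjusted p = 0.0341) and not with circ0003553. KBTBD11-OT1, which overlaps CLN8 and ARHGEF10 on the same strand, was lower with both circRNAs in PC3 (-0.24 and -0.33, edgeR, adjusted p = 0.0408 and 0.00745). CTD-2336O2.3, inside CLN8 on the opposite strand, had 14 counts with circ0004592, against 45 and 32 in the PC3 controls (-1.33, edgeR, adjusted p = 0.0204), and was not called with circ0003553. The part of these overlaps in the CLN8 counts was not tested. CLN3, a membrane protein of the lysosome, was not called in these comparisons.

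MCOLN1, the calcium channel of the lysosomal membrane, stood at 70.3 CPM with circ0003553 and 80.3 CPM with circ0004592 in PC3, against 67.4 and 59.7 CPM in the PC3 controls. Levels in DU145 were 16.1 and 23.1 CPM, against 19.7 and 21.5 CPM. It rose by 0.34 ± 0.08 with circ0004592 in PC3 (edgeR, adjusted p = 0.00379) and fell by 0.36 with circ0003553 in DU145 (SE 0.10, edgeR, adjusted p = 0.0222). The PC3 call was lost by DESeq2, by limma and with both circRNAs as 1 group, and the DU145 call by these and without either DU145 control.

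TFEB itself was among the lowest members. It stood at 2.21 and 2.43 CPM in PC3 with circRNA, against 3.60 and 2.40 CPM in the PC3 controls. In DU145 it stood at 2.34 and 3.22 CPM, against 3.33 and 3.50 CPM. It was called in no comparison, with log2 values of -0.44 ± 0.28 and -0.30 ± 0.28 in PC3 and -0.55 ± 0.26 and -0.08 ± 0.26 in DU145. TFEB had 72 to 152 counts per library. The circ0003553 library lay below both controls in each line, and the circ0004592 library did so in DU145 only. The circ0003553 change in DU145 had an unadjusted p of 0.0473 and an adjusted p of 0.197 by edgeR. Against the control of the own arm alone, with no test, the TFEB value was -0.69 and 0.02 in PC3 and -0.50 and -0.12 in DU145.

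**Figure D3:**
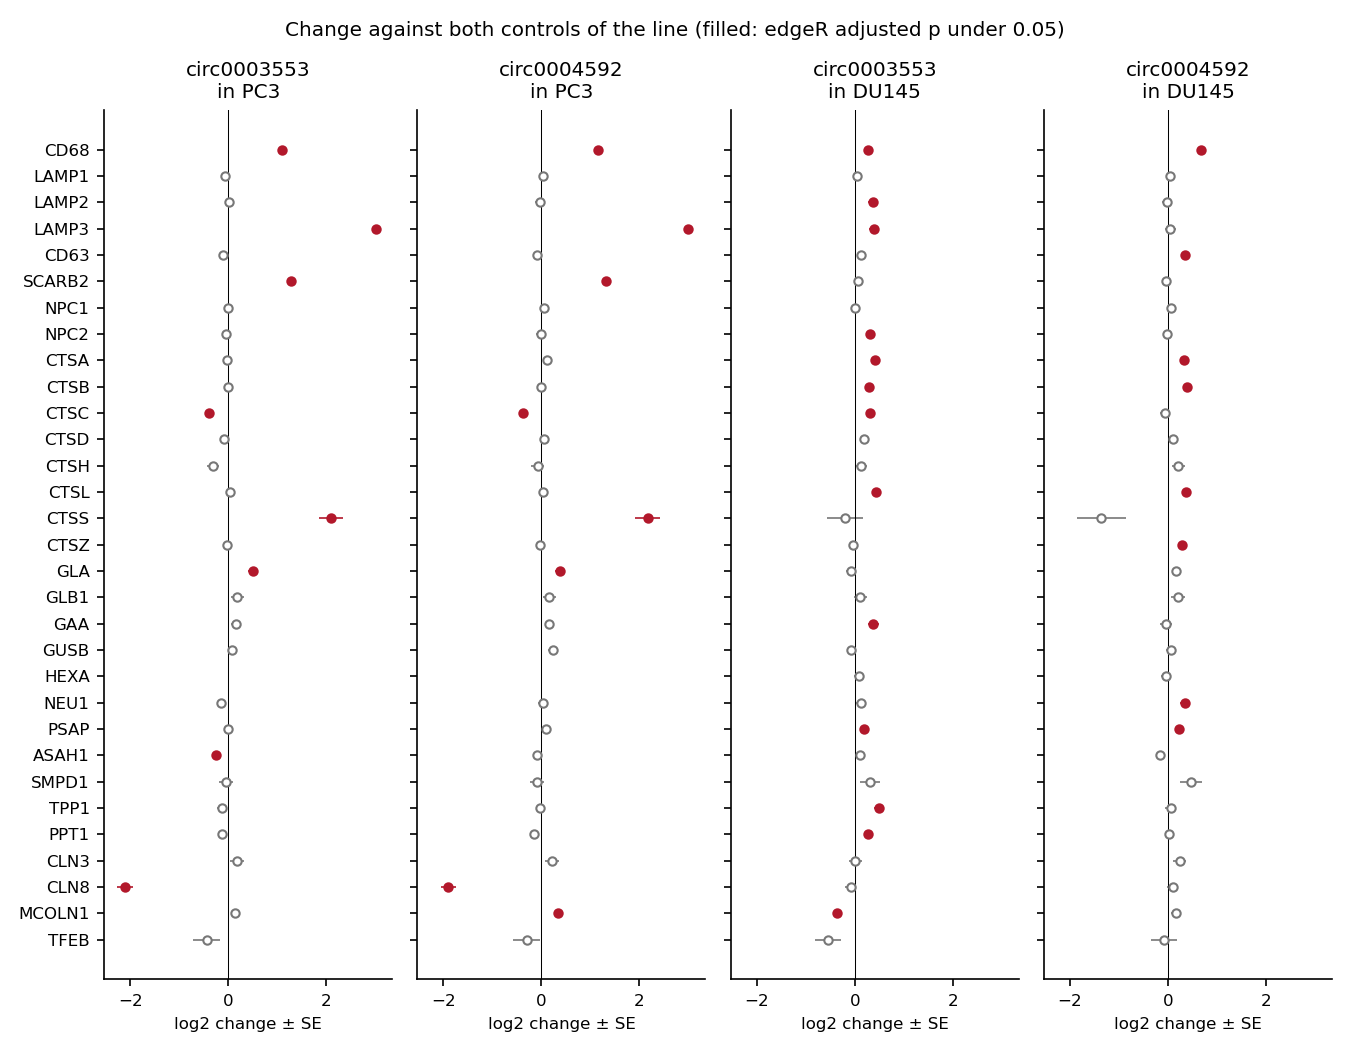
Log2 change (x axis, ± SE) of the members against both controls of the line, in 4 panels for circ0003553 and circ0004592 in PC3 and in DU145. Filled red points passed edgeR at an adjusted p under 0.05 (8, 8, 13 and 8 members from left to right), and HEXA has no point in PC3, where all its counts are 0.

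The change differed between the lines by the test of the difference itself, the change in PC3 minus the change in DU145. For circ0003553, 18 of 31 members differed, 6 higher and 12 lower in PC3, where 22.6% of all tested genes did, 13.4% higher and 9.24% lower. For circ0004592, 9 differed, 4 higher and 5 lower, where 19.5% of all tested genes did, 10.6% higher and 8.91% lower. LAMP3 (2.63 ± 0.12 and 2.93 ± 0.13), SCARB2 (1.21 ± 0.08 and 1.35 ± 0.08), CTSS and CD68 (0.83 ± 0.09 and 0.46 ± 0.09) changed more upward in PC3 with both circRNAs. CLN8, CTSB, CTSL and CD63 lay on the negative side with both. For CD68 these differences had an adjusted p of 1.21e-06 and 9.78e-04 by edgeR.

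Over both lines together, with every circRNA library paired to its arm's control in that line, edgeR called 0 of 31 members and 0 of 17869 genes for either circRNA. The spread in this fit comes from the difference in a circRNA's change between PC3 and DU145. A gene whose change differed between the lines thus has a wide SE here, and 0 calls does not mean that it was unchanged. At an unadjusted p under 0.05 there were 506 genes for circ0003553 and 548 for circ0004592, and DESeq2 called 11 and 13 genes. The CD68 value in this fit was 0.68 ± 0.23 and 0.91 ± 0.23, not called (edgeR, adjusted p = 0.977 and 0.986). With no filter on expression, CD68 was called higher for circ0004592, so that result turned on the filter.

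The lines themselves differed at most of the lysosomal genes. Among the controls, 29 of 31 members were called between PC3 and DU145, 23 higher and 6 lower in PC3, where 82.5% of all tested genes were called, 41.6% higher and 40.9% lower. The median log2 difference was 0.76 over the members and 0.00 over all tested genes. CLN3 and TFEB were not called. SMPD1 stood at 12.3 ± 0.571 CPM in PC3 controls and 1.62 ± 0.102 CPM in DU145 controls (SD, n = 2 each), a log2 difference of 2.92 ± 0.15 (edgeR, adjusted p = 4.40e-13). LAMP3 stood at 46.0 ± 2.10 CPM in PC3 controls and 6.72 ± 0.180 CPM in DU145 controls, a difference of 2.78 ± 0.07 (edgeR, adjusted p = 1.28e-17). These were the widest gaps toward PC3 among the 31. Of the other lists, 22 of 34 hydrolases, 11 of 16 proton pump genes, 10 of 17 membrane proteins, 5 of 9 sorting genes, 11 of 16 regulators and 13 of 15 autophagy genes were higher in PC3 controls, and 8, 4, 1, 1, 3 and 0 of them were lower.

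GAA (2.04), TPP1 (1.85), CTSA (1.76), CTSD (1.73), NEU1 (1.64), MCOLN1 (1.63), LAMP2 (1.46), CD68 (1.43), CTSZ (1.39), CTSC (1.21), CTSS (1.16) and CD63 (1.15) also had a log2 difference of at least 1 toward PC3, all called by edgeR. CTSA and NEU1, partners in a complex, lay on the same side. On the other side, CTSL stood at 179 ± 15.9 CPM in PC3 controls and 577 ± 29.9 CPM in DU145 controls, a difference of -1.69 ± 0.06 (edgeR, adjusted p = 5.99e-16). GLA stood at 13.8 ± 0.772 CPM in PC3 controls and 28.2 ± 0.626 CPM in DU145 controls, a difference of -1.03 ± 0.08 (edgeR, adjusted p = 5.50e-10). CTSB (-0.80), CLN8 (-0.67) and NPC2 (-0.50) were lower in PC3 by less.

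**Figure D4:**
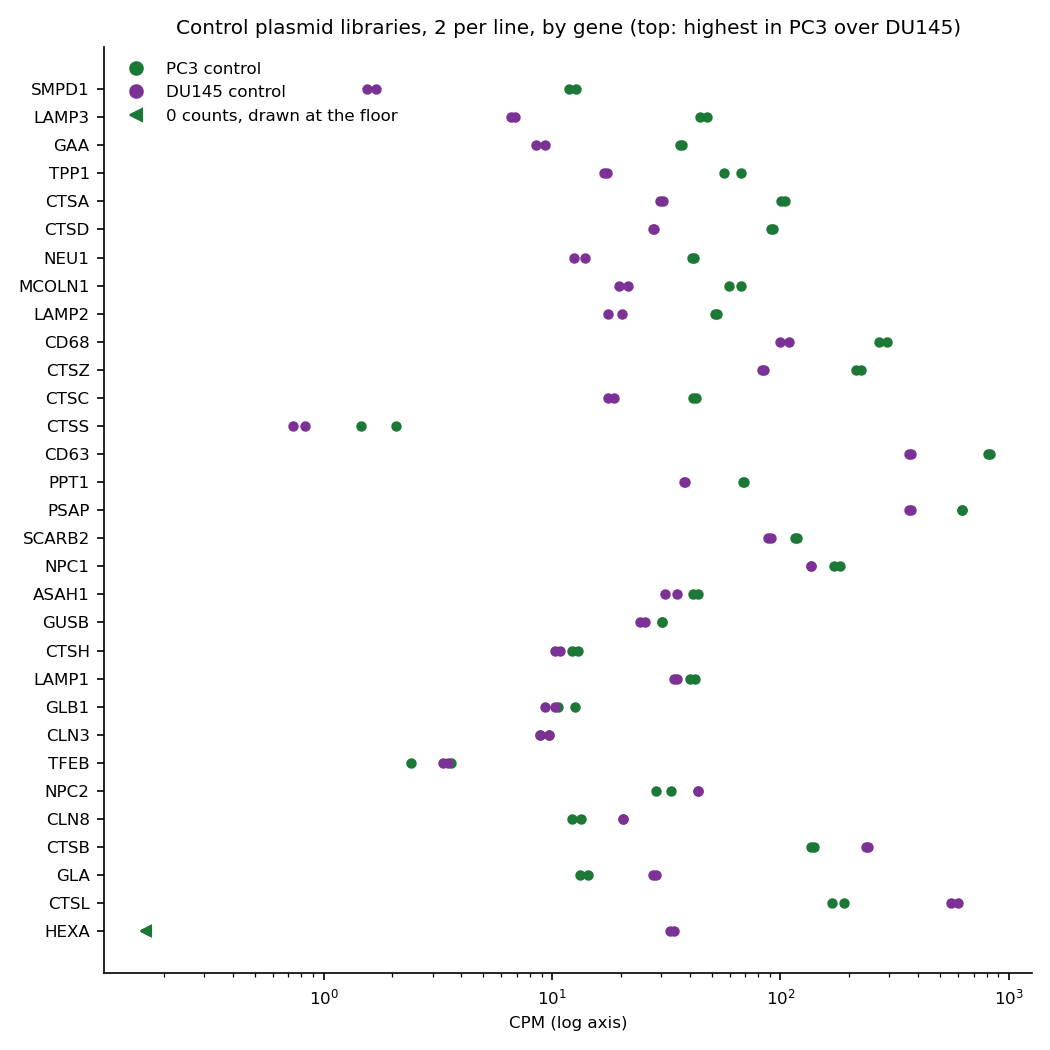
CPM (x axis, log scale) of the 31 members in the 2 PC3 controls (green) and the 2 DU145 controls (purple), sorted from the highest PC3 to DU145 ratio at the top. HEXA at the bottom has 0 counts in PC3 and is drawn as a triangle at the floor of 6 counts.

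Between genes, levels can be compared per length only, as the deposited RPKM. In PC3 controls the highest members by RPKM were CD63 at 313, PSAP at 194, CD68 at 130, CTSZ at 109 and CTSL at 76.3. In DU145 controls they were CTSL at 245, CD63 at 141, PSAP at 114, CD68 at 48.1 and CTSZ at 41.4. The same 5 genes led in both lines, with CTSL in first place in DU145 and in place 5 in PC3. CTSS was lowest in DU145 at 0.186 RPKM and in place 30 in PC3 at 0.420 RPKM, above HEXA only.

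HEXA, the alpha subunit of beta-hexosaminidase A and the gene of Tay-Sachs disease, had 0 counts in all 4 PC3 libraries, out of 138011989 counts in all. The DU145 values were 35.5 CPM with circ0003553 and 32.7 CPM with circ0004592, against 34.2 and 32.7 CPM in the DU145 controls. With a floor of 6 counts per library, or 3 read pairs, HEXA was at least 199.8-fold lower in PC3 controls than in DU145 controls. In DU145 neither circRNA changed it by the test, at 0.09 ± 0.09 and -0.04 ± 0.10.

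Its neighbours on chromosome 15 were read along the genome. PARP6, RP11-106M3.5, RP11-106M3.3, RP11-106M3.2 and HEXA-AS1 stood at 0 to 0.0608 CPM in PC3, against 52.5 to 56.5 CPM for PARP6 in DU145 and 0.811 to 1.49 CPM for HEXA-AS1. PKM, a glycolytic enzyme gene just before this stretch, stood at 1054 to 1203 CPM in PC3, and ARIH1, a ubiquitin ligase gene beyond it, at 35.4 to 41.2 CPM. Thus HEXA lay in a run of neighbours that are at or near 0 in PC3 and expressed in DU145, between genes expressed in both lines.

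**Figure D5:**
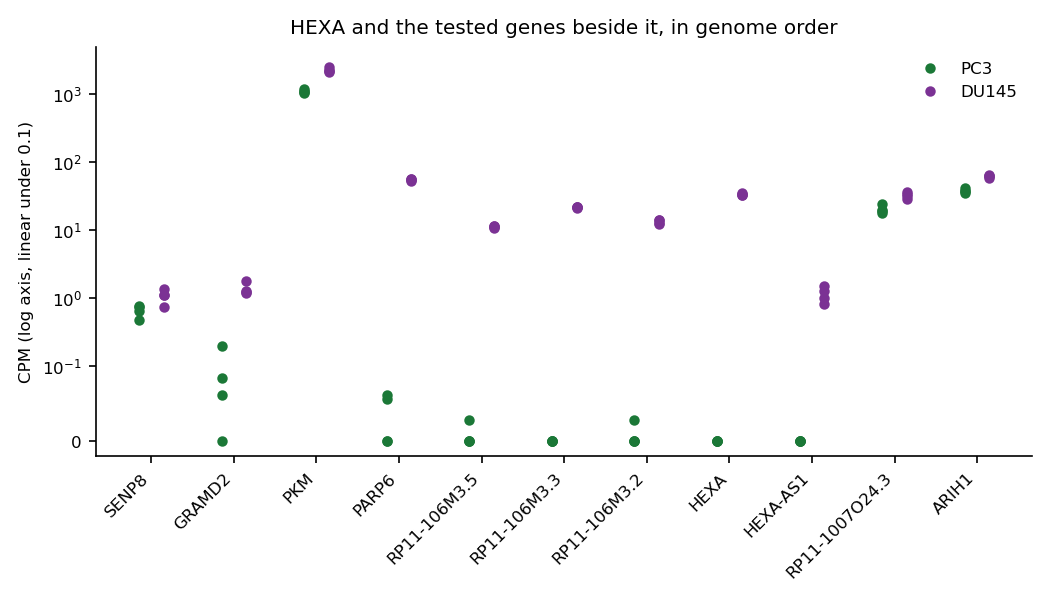
CPM (y axis, log scale, linear under 0.1) of HEXA and the tested genes beside it in genome order, with 4 PC3 libraries (green) and 4 DU145 libraries (purple) per gene. PARP6 through HEXA-AS1 lie at 0 to 0.0608 CPM in PC3, while PKM and ARIH1 on the outer sides are expressed in both lines.

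The other genes of the pathway were read from 7 lists. Of 34 tested members of the list of other hydrolases and cofactors, 9 rose and 5 fell with circ0003553 in PC3, and 8 rose and 4 fell with circ0004592, or 41.2% and 35.3% called, where 28.2% and 24.8% of all tested genes were. LIPA, the acid lipase of cholesteryl esters, stood at 43.7 and 40.5 CPM in PC3 with circRNA, against 10.6 and 9.86 CPM in the PC3 controls, a change of 2.09 ± 0.10 and 1.99 ± 0.10 (edgeR, adjusted p = 2.01e-12 and 5.43e-12). LGMN, an asparaginyl protease that matures cathepsins, stood at 117 and 115 CPM, against 37.8 and 36.4 CPM, a change of 1.66 ± 0.08 and 1.63 ± 0.08 (edgeR, adjusted p = 3.01e-12 and 4.48e-12). IFI30, an interferon-inducible thiol reductase, rose by 1.07 ± 0.12 and 1.12 ± 0.12 (edgeR, adjusted p = 8.11e-07 and 4.51e-07). GALC, which degrades galactosylceramide, fell by 1.47 with circ0003553 (SE 0.49, edgeR, adjusted p = 0.0311). It stood at 0.245 CPM there, against 0.754 and 0.614 CPM in the PC3 controls, so this call rests on low counts. Enzymes outside the 31 members thus also moved in PC3, up and down, in the same libraries as CD68, LAMP3 and SCARB2. In DU145, 4 rose and 1 fell with circ0003553 and 3 rose and 1 fell with circ0004592, or 14.7% and 11.8% called, near the 10.5% and 9.89% of all tested genes. Among them was ARSB, a sulfatase, up by 0.56 ± 0.17 and 0.74 ± 0.18 (edgeR, adjusted p = 0.0402 and 0.0126).

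Of 16 subunits and partners of the proton pump, 3 rose and 1 fell with each circRNA in PC3, and 2 rose and none fell with each in DU145. These shares, 25% with each circRNA in PC3 and 12.5% in DU145, were near those of all tested genes (28.2% and 24.8% in PC3, 10.5% and 9.89% in DU145). ATP6V1B2, a subunit of the sector that binds ATP, rose by 0.66 ± 0.07 and 0.62 ± 0.07 in PC3 (edgeR, adjusted p = 7.58e-07 and 1.90e-06). Of 17 tested other membrane proteins, 0 rose and 5 fell with circ0003553 and 1 rose and 4 fell with circ0004592 in PC3. That is 29.4% called with each, near the background, while 12.6% and 11.7% of all tested genes were called lower. TPCN1, an endolysosomal cation channel, fell by 0.51 and 0.60 (SE 0.07 each, edgeR, adjusted p = 7.61e-06 and 1.09e-06). CTNS, the cystine exporter, fell by 0.50 and 0.49 in the same comparisons (SE 0.13 each, edgeR, adjusted p = 0.00489 and 0.00625). Both went opposite to CD68, LAMP3 and SCARB2 in PC3. In DU145, 2 of the 17 rose with circ0003553 and 1 with circ0004592, and none fell (11.8% and 5.88% called, against 10.5% and 9.89% of all tested genes).

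Of 9 genes of enzyme sorting, 1 rose and 3 fell with circ0003553 and 2 rose and 2 fell with circ0004592 in PC3, or 44.4% called with each, where 28.2% and 24.8% of all tested genes were, and none was called in DU145. IGF2R, the large mannose 6-phosphate receptor, fell by 0.20 and 0.27 in PC3 (SE 0.06 each). M6PR, the other such receptor, went the opposite way with circ0004592, by 0.28 ± 0.07, and was not called with circ0003553. It stood at 53.1 and 60.5 CPM in PC3 with circRNA, against 49.5 and 50.1 CPM in the PC3 controls. Of 16 regulators at the lysosome, 2 rose and 3 fell with circ0003553 and 1 rose and 2 fell with circ0004592 in PC3, or 31.2% and 18.8% called, near that background. TFE3, a relative of TFEB, fell by 0.24 with circ0003553 (SE 0.08, edgeR, adjusted p = 0.0372). MITF, of the same family, stood at 4.55 and 5.64 CPM in PC3 controls, against 39.1 and 44.0 CPM in DU145 controls, a difference of -3.02 ± 0.10 (edgeR, adjusted p = 1.37e-15). Any part of MITF in the differences of the members between the lines was not tested. In DU145, 1 regulator rose and 1 fell with circ0003553 and 1 rose with circ0004592, or 12.5% and 6.25% called, against 10.5% and 9.89% of all tested genes.

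Of 15 autophagy genes, 3 rose and 3 fell with circ0003553 and 2 rose and 2 fell with circ0004592 in PC3, or 40% and 26.7% called, where 28.2% and 24.8% of all tested genes were. SQSTM1, the autophagy receptor p62, stood at 725 and 693 CPM in PC3 with circRNA, against 479 and 480 CPM in the PC3 controls. DU145 libraries had 517 and 572 CPM with circRNA, against 411 and 405 CPM in the controls. It rose by 0.60 ± 0.05 and 0.53 ± 0.05 in PC3 and by 0.34 ± 0.05 and 0.49 ± 0.05 in DU145 (edgeR, largest adjusted p = 2.14e-04). MAP1LC3B, the membrane marker of autophagosomes, fell by 0.49 and 0.27 in PC3 (edgeR, adjusted p = 9.74e-05 and 0.0137). In DU145 it rose by 0.38 ± 0.08 with circ0003553 (edgeR, adjusted p = 0.00343) and was not called with circ0004592. Its change in PC3 minus that in DU145 was -0.87 and -0.36 (edgeR, adjusted p = 8.65e-06 and 0.0314). In DU145, 3 autophagy genes rose and 1 fell with circ0003553, and 2 rose with circ0004592, or 26.7% and 13.3% called, where 10.5% and 9.89% of all tested genes were.

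Interferon-stimulated genes moved in the same PC3 libraries as CD68, LAMP3, SCARB2 and CTSS. Of 20 such genes, 20 rose with each circRNA in PC3, with a median log2 change of 5.81 and 5.80, where 15.6% and 13.2% of all tested genes rose. In DU145, 12 rose with circ0003553 and 8 with circ0004592, with a median of 0.47 and 0.55, where 4.24% and 5.24% of all tested genes rose. IFIT1, an antiviral gene, rose by 7.06 ± 0.07 and 7.09 ± 0.07 in PC3 (edgeR, adjusted p = 1.94e-23 and 1.80e-23). Their part in the changes of the lysosomal genes was not tested.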

How the data were processed

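The deposited tables hold, per gene, raw read counts and RPKM for the 8 libraries, in a pair of tables per arm. The submitters' processing notes name Trimmomatic 0.36, featureCounts from Subread 1.5.1, edgeR 3.12.1 and hg38. The strand setting of the counting, the aligner, which annotation was counted and whether molecular identifiers were used are not given in the sources used here, so reads of overlapping genes on opposite strands cannot be told apart. The authors' RPKM equal the deposited counts scaled by gene length and by the library's total count. Of 36779 genes, 31268 stand in both arms, and the 5511 listed for a single arm (at most 14 counts there) were given 0 in the other. Even numbers made up 64.9% to 66.1% of counts from 1 to 20, as in counting each mate of a pair, so the floor of a gene at 0 was 3 read pairs, or 6 counts, in a library. Floors cover counting error only.

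Genes with at least 1 CPM in at least 2 libraries (17869) were tested by quasi-likelihood in edgeR 4.0.16 after TMM scaling (R 4.3.3, limma 3.58.1, version 1.17.8 of data.table) in 1 fit of 6 groups of line and plasmid, each line having 1 control group, with 2 residual degrees of freedom. The comparison over both lines used 4 blocks of line and arm. Adjusted p is Benjamini-Hochberg over all tested genes in a comparison, with a threshold of 0.05, and 9 comparisons were made. The SE was worked back from F and the log2 change. The procedure was tested on simulated counts in which all libraries had the same spread for a gene, and fewer genes were changed than were called in PC3. That test cannot show whether a single circRNA library scatters as the controls do.

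Described in full are CD68, TFEB and every member called in a line with an absolute log2 change of at least 0.5, or of at least 1 between lines, and up to 4 called genes per other list and comparison were eligible to be named. Other members, neighbouring genes and examples from the lists were chosen after their values were seen. The members and lists were chosen with earlier results of these data known. Alternatives were DESeq2 1.42.0 or its size factors, no filter, a filter of 5 CPM, limma on log2(RPKM + 0.1), the arm as a block, both circRNAs as 1 group, and each control left out. The arm differences of the 2 lines had a correlation of -0.04 across 12295 genes. This value asks only whether PC3 and DU145 share an arm effect. It cannot show whether a circRNA library pairs with the same arm's control, so such pairing within a line was not tested. Values against that control alone are given for CD68 and TFEB, with no test. The 2 controls of a line differed by more than sampling noise (mean chi-square per gene 2.15 in PC3 and 2.37 in DU145) and were kept as separate libraries. Promoter sequences are from RefSeq.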

Additional observations from a re-analysis of the deposited data

Results flagged for a closer look

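With circ0003553 the change in PC3 differed from that in DU145 at 18 members by the edgeR test of the difference itself, and with circ0004592 at 9. Values are log2 changes in PC3 minus those in DU145. No explanation was tested for any of them.

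For circ0003553, the difference was upward at LAMP3 (2.63), CTSS (2.30), SCARB2 (1.21), CD68 (0.83), GLA (0.58) and MCOLN1 (0.50). LAMP3, SCARB2, CTSS and GLA rose in PC3, CD68 rose in both lines, and MCOLN1 fell in DU145. The difference was downward at CLN8 (-2.02), CTSC (-0.71), TPP1 (-0.63), CTSA (-0.44), PPT1 (-0.40), CTSL (-0.39), ASAH1 (-0.36), LAMP2 (-0.36), CTSB (-0.30), CTSD (-0.28), CD63 (-0.24) and PSAP (-0.21). Of these, CLN8 and ASAH1 fell in PC3, CTSC fell in PC3 and rose in DU145, and TPP1, CTSA, PPT1, CTSL, LAMP2, CTSB and PSAP rose in DU145. CTSD and CD63 were called in neither line by themselves.

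For circ0004592, the difference was upward at CTSS (3.53), LAMP3 (2.93), SCARB2 (1.35) and CD68 (0.46). It was downward at CLN8 (-2.00), CD63 (-0.45), CTSB (-0.40), CTSL (-0.33) and CTSZ (-0.32). CTSS held 10 counts in the DU145 library with circ0004592, against 38 and 28 in the DU145 controls.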

How the results depend on the processing

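Of the values of named genes under the alternatives, 595 kept their direction and their side of the threshold, 16 kept the direction and lost the call, and 9, none of them called, changed sign. Members called with circ0004592 in PC3 were 8, against 5 by DESeq2 and 5 by limma on RPKM. With circ0003553 in DU145 they were 13, against 7 by DESeq2, 0 by limma, 4 with both circRNAs as 1 group and 4 to 13 without a replicate. With circ0004592 in DU145 they were 8, against 0 by limma, 4 with both circRNAs as 1 group and 6 to 8 without a replicate. Differences between lines were 18 for circ0003553, against 9 by DESeq2 and 3 by limma, and 9 for circ0004592, against 4 by limma. Over both lines, circ0004592 had 0 members called, against 1 with no filter, which was CD68. With the arm as a replicate block the counts were 7, 8, 11, 8, 29, 18 and 9, so the block moved none by over 1.5 times. Within a line the block left ASAH1 (circ0003553, PC3), CTSC and GAA (circ0003553, DU145) uncalled. Calls were also gained: with circ0003553 in PC3, CTSH was called lower with the filter of 5 CPM and CD63 with no filter. Sign changes were TFEB for circ0004592 in PC3 (-0.59 to 0.0033 without a control), its difference between lines (-0.52 to 0.077 for circ0004592 and -0.19 to 0.40 for circ0003553 without a PC3 control) and TFEB for circ0004592 in DU145 (0.035 with the block). In DU145 they were CLN8 (0.0046) and GLA (0.046) for circ0003553 and SCARB2 (0.023) for circ0004592 with both circRNAs as 1 group, SCARB2 without a control (-0.049 to 0.0011) and LAMP3 by limma (-0.0011) for circ0004592. All genes called were 5041, 4440, 1883 and 1767 for circ0003553 and circ0004592 in PC3 and in DU145, and their lowest count was 2221, 1753, 0 and 0, by limma. Between lines the differences numbered 4041 and 3493, and at least 877 and 768. Another scaling moved the median of all genes by at most 0.03. The cause of these shifts was not tested. With 1 library per circRNA and line, and few counts for TFEB and CTSS, small changes could not be resolved.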

Other observations

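ATP6V0A1, a membrane subunit of the proton pump, stood at 0 and 0.0608 CPM in PC3 with circRNA, against 0 and 0.112 CPM in the PC3 controls. In DU145 it stood at 22.2 and 23.6 CPM with circRNA, against 23.1 and 20.03 CPM in the controls. Its neighbours on one side on chromosome 17, STAT5B, STAT5A and STAT3, stood at 0 to 0.182 CPM in PC3 libraries, while STAT3 stood at 114 to 126 CPM in DU145 libraries. On the other side, COASY stood at 49.2 to 67.7 CPM in PC3 and 65.4 to 74.9 CPM in DU145. GALC, the enzyme that degrades galactosylceramide, stood at 0.245 and 0.547 CPM in PC3 with circRNA, against 0.754 and 0.614 CPM in the PC3 controls, and at 24.1 and 19.9 CPM in DU145 with circRNA, against 20.1 and 23.2 CPM in the DU145 controls. HEXA, ATP6V0A1 and GALC were thus lysosomal genes at or near 0 in PC3 and expressed in DU145.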
